A study of Mus musculus with 29 samples.

Results

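Presynaptic active zone genes were followed here as a set of 10 genes, chosen by name and mapped to the Ensembl identifiers of the count tables, out of 48709 genes in each table. Pclo, Bsn, Rims1, Rims2 and Erc2 encode scaffold proteins of the active zone. Unc13a encodes a vesicle priming factor, Stx1a and Snap25 encode SNARE proteins, Syt1 encodes a calcium sensor and Syn1 encodes a protein on the surface of synaptic vesicles. All 10 passed the filter on low counts in PFC tissue and in co-cultures. The question was whether anti-miR-99b, compared with sc-control, changed their RNA levels once gene length was taken into account.

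RNA was measured by RNA-seq in 29 libraries. PFC tissue came from male C57BL/6J mice that were injected at 3 months of age, with 1 library per mouse, and was collected 5 days after lipid nanoparticles had carried anti-miR-99b (3 mice) or sc-control (3 mice) into the PFC. Co-cultures held CD1 cortical neurons from embryonic day 17.5 and primary microglia, which were exposed for 48 h to anti-miR-99b (7 libraries) or to sc-control (8 libraries) and then kept for a further 48 h with the neurons, so the oligonucleotides were given to the microglia and not to the neurons. Cultured microglia without neurons (4 anti-miR-99b and 4 sc-control libraries, CD1 pups of postnatal day 1) served here only to show the level of the 10 RNAs in microglia. The inhibitor anti-miR-99b, a locked nucleic acid oligonucleotide, binds miR-99b-5p, and sc-control carries a scrambled sequence; neither group has an untreated counterpart here, and the microRNA itself was not measured by these libraries, which were made from polyadenylated RNA. The labels do not say which co-culture wells shared a neuron or microglia preparation, so the p-values below measure the spread between these libraries, which may in part be technical.

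At a chemical synapse, vesicles are released at the active zone, a dense protein sheet under the presynaptic membrane. Piccolo (Pclo) and Bassoon (Bsn) are very large scaffolds that hold vesicles and organize the sheet, RIM proteins (Rims1, Rims2) recruit calcium channels and vesicles, and ELKS2 (Erc2) binds several of these proteins. Munc13-1 (Unc13a) prepares vesicles for fusion, syntaxin-1A (Stx1a) and SNAP-25 (Snap25) are SNARE proteins of the plasma membrane that drive fusion, synaptotagmin-1 (Syt1) triggers fusion when calcium enters, and synapsin-1 (Syn1) ties vesicles together in the reserve pool.

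The target of the inhibitor is shown because a microRNA recognizes its RNAs mainly through its seed. The mature sequence of mouse miR-99b-5p, taken from RefSeq (GRCm38.p6, chr17:17830194-17830215, plus strand), is printed with its seed, bases 2 to 8, in capitals.
miR-99b-5p: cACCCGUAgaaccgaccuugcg
The match to the whole seed is TACGGGT, and the match to bases 2 to 7 followed by A is ACGGGTA. Neither was present, on the transcript strand, in the longest annotated 3′ UTR of any of the 10 genes. Of 20928 genes with an annotated 3′ UTR, 394 (1.88%) held at least 1 of the 2 motifs, so the count of 0 of 10 does not set these genes apart. The result says only that these letters are not in these windows.

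The 10 genes differ widely in size, which matters for the comparison. By the GENCODE M21 annotation (GRCm38, the build named mm10 by the submitters), Pclo (ENSMUSG00000061601) lies on the plus strand of chr5:14514918-14863459 and has the most exonic sequence, 22.46 kb. Bsn (ENSMUSG00000032589), on the minus strand of chr9:108096022-108190384, has 15.94 kb. Unc13a (ENSMUSG00000034799) at chr8:71624417-71671757 on the minus strand has 12.62 kb, and Rims2 (ENSMUSG00000037386) at chr15:39198261-39684372 on the plus strand has 10.39 kb. Erc2 (ENSMUSG00000040640), on the plus strand of chr14:27622428-28478537, spans the longest stretch of genome, 856.1 kb, but has 9.73 kb of exons. Syt1 (ENSMUSG00000035864) at chr10:108497650-109010982 and Rims1 (ENSMUSG00000041670) at chr1:22286251-22805994, both on the minus strand, have 8.34 and 7.36 kb of exons. Snap25 (ENSMUSG00000027273) at chr2:136713453-136782428 on the plus strand has 6.79 kb. The shortest are Syn1 (ENSMUSG00000037217), 3.3 kb on the minus strand of chrX:20860511-20921004, and Stx1a (ENSMUSG00000007207), 2.67 kb on the plus strand of chr5:135023482-135051100. Base composition differed as well. The longest transcripts of Bsn, Syn1, Stx1a and Unc13a had a GC share of 59.8%, 57.9%, 57.9% and 55.1%, whereas the other 6 genes lay between 38.7% in Snap25 and 48.9% in Rims2. Exons of Pclo share 925 bases with 2 genes of the other strand (Gm26918 and Gm26954), and those of Unc13a share 495 bases with Colgalt1. The shared stretch was 57 bases in Bsn, 106 in Erc2 and 9 in Syn1, and none in the other 5. Since the strand setting of the counting is not stated, reads in these shared stretches cannot be assigned with certainty.

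Reads counted on genes ranged from 24482309 to 36475236 in the PFC libraries and from 23269839 to 37901110 in the co-culture libraries, and TMM factors stayed between 0.982 and 1.02. The neuron character of both experiments was checked with 12 neuron markers. Their summed level, in counts per 1000000 reads (CPM), ranged from 10427 to 11282 in PFC tissue and from 10456 to 10965 in co-cultures, compared with 227 to 247 in cultured microglia. The 15 microglia markers summed to between 216 and 298 CPM in co-cultures and to between 19305 and 20485 CPM in cultured microglia.

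Levels can be compared between genes only per length, so CPM were divided by the exonic length in kb. In the PFC of sc-control mice Snap25 had the highest level per kb, 494 ± 49.9 (SD, n = 3), followed by Syn1 at 250.2 ± 14.7, Syt1 at 226 ± 1.96 and Stx1a at 163 ± 8.79. The RNAs of the scaffold proteins and of the priming factor stood lower. Unc13a reached 49.0 ± 2.60, Bsn 37.4 ± 2.01, Rims1 33.2 ± 0.631, Erc2 16.4 ± 0.713, Pclo 14.7 ± 0.312 and Rims2 7.12 ± 0.547 CPM per kb. Thus the RNAs of Snap25, Syn1, Syt1 and Stx1a stood above those of Unc13a and of the scaffolds, and no 2 neighbours in this order overlapped between libraries.

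In sc-control co-cultures the order changed at the top. Syn1 was highest at 113 ± 3.41 CPM per kb (SD, n = 8), followed by Syt1 at 99.2 ± 3.09, Stx1a at 89.1 ± 3.38 and Snap25 at 76.5 ± 1.43. Unc13a followed at 31.7 ± 0.530, Erc2 at 28.6 ± 0.993, Rims1 at 18.7 ± 0.701, Bsn at 16.99 ± 0.603, Pclo at 8.70 ± 0.722 and Rims2 at 2.84 ± 0.125 CPM per kb. Again no neighbours overlapped. The 2 tables were normalized separately and differ in strain and age, so levels across them are set side by side without a test. Per kb, 9 of the 10 genes stood higher in PFC tissue, by a ratio from 1.55 in Unc13a to 6.46 in Snap25, and Erc2 alone stood lower, with a ratio of 0.572. Dividing by the longest transcript in place of the exonic length exchanged Syn1 with Syt1 in both experiments, Erc2 with Unc13a in co-cultures and Bsn with Rims1 in the PFC.

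In sc-control microglia without neurons the 10 genes were at between 0.136 CPM per kb (Rims1) and 1.70 CPM per kb (Syn1). Relative to the co-cultures this was under 5% for 9 genes, from 0.655% in Syt1 to 4.54% in Unc13a, and 10.9% in Rims2. These are ratios between separate cultures, not the share of co-culture RNA that comes from microglia. The same sc-control microglia libraries held neuron markers at 227 to 247 CPM, astrocyte markers at 310 to 344 CPM and oligodendrocyte lineage markers at 308 to 354 CPM. The part of other cells in the levels of the 10 genes was not tested. In these microglia Unc13a and Stx1a, Syt1 and Snap25, and Bsn and Erc2 overlapped with their neighbour in the order.

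**Figure D1:**
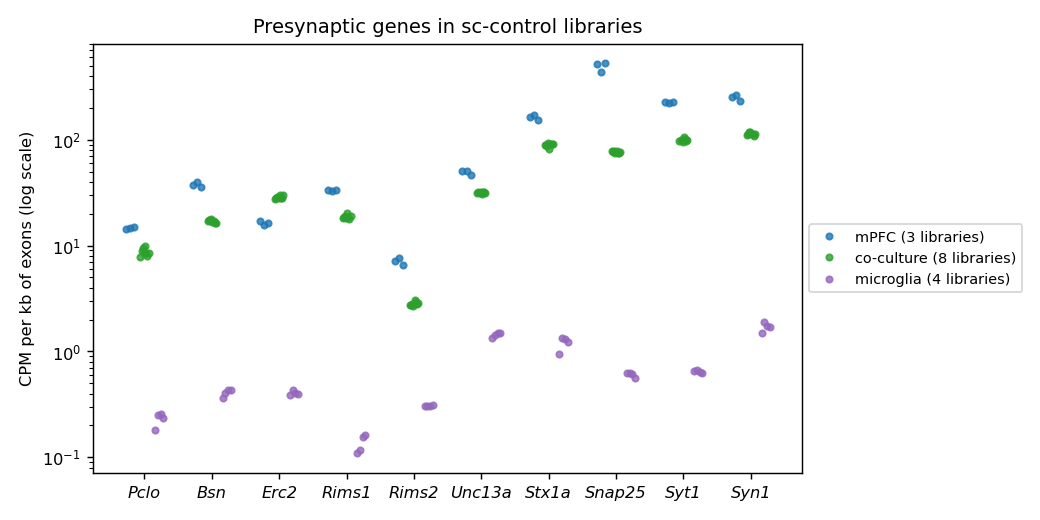
Level of each gene in every sc-control library, in CPM per kb of exonic sequence on a log axis, for PFC tissue (3 libraries), co-cultures (8) and cultured microglia (4). Each point is 1 library, slightly spread sideways. Erc2 is the gene whose co-culture points lie above its PFC points, and microglia points lie below those of both other experiments for all 10 genes.

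In PFC tissue none of the 10 genes passed the threshold for anti-miR-99b against sc-control. The threshold was an adjusted p-value under 0.1 with a log2FC beyond 0.2, by edgeR's quasi-likelihood test with Benjamini-Hochberg adjustment over 17364 genes, where 15 genes (0.0864%) passed. DESeq2 also called 0 of the 10. At an unadjusted p under 0.05 by edgeR, 1 of the 10 stood out, compared with 7.64% of all genes tested. The log2FC ranged from -0.16 to 0.07 with 5 positive and 5 negative values, and their median was -0.00, as was that of all genes (0.00). In bulk samples, fewer cells of a type and less RNA per cell cannot be told apart.

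Among the scaffold genes in the PFC, Erc2 had the lowest log2FC. Its level was 139, 137 and 151 CPM with anti-miR-99b (3 mice) compared with 167, 153 and 158 CPM with sc-control (3 mice). All 3 anti-miR-99b values lay below the 3 control values, and the log2FC was -0.16 ± 0.07 (SE), with an adjusted p of 0.649 by edgeR (0.0376 unadjusted). The exact permutation test, two-sided, gave 0.1, which is the smallest p that 3 against 3 allows. Groups without overlap were found for 13.3% of all genes in the PFC, and for Erc2 and Syt1 among the 10. Within lanes the difference in log2 CPM was -0.22 on lane 6 (2 against 2 libraries) and -0.06 on lane 7 (1 against 1).

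Pclo was at 341, 298 and 335 CPM with anti-miR-99b and at 325, 329 and 339 CPM in sc-control mice. Its groups overlapped, with a log2FC of -0.03 ± 0.07 (SE, adjusted p 0.932 by edgeR) and an approximate 95% interval from -0.17 to 0.11. Bsn was at 653, 549 and 577 CPM against 596, 629 and 565 CPM, so that the controls lay inside the range of the treated mice (log2FC -0.01 ± 0.08, SE). Rims1 (266, 233 and 257 CPM against 247, 239 and 247) and Rims2 (79.6, 68.3 and 74.9 CPM against 73.7, 79.8 and 68.4) overlapped as well, with log2FC of 0.04 ± 0.07 and 0.01 ± 0.08.

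For priming and fusion in the PFC, the differences were of the same small size. Unc13a, the priming factor, was at 699.9, 634 and 610.3 CPM with anti-miR-99b and at 640.4, 635 and 581 CPM in sc-control mice (log2FC 0.07 ± 0.08, SE). The SNARE gene Stx1a was at 504, 455 and 386 CPM against 436, 458 and 411 CPM (log2FC 0.04 ± 0.10). The other SNARE gene, Snap25, was at 3071, 3207 and 3231 CPM against 3532, 2962 and 3564 CPM, where 1 control library lay below all treated ones (log2FC -0.08 ± 0.09).

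Syt1, the calcium sensor, was at 1791, 1773 and 1722 CPM with anti-miR-99b and at 1900.5, 1868 and 1887 CPM in sc-control mice. These groups did not overlap, and the log2FC was -0.10 ± 0.07 (SE, adjusted p 0.715 by edgeR), with 0.1 by the exact permutation test. Syn1, on the vesicle, was at 988, 846 and 756 CPM against 836, 867 and 772 CPM (log2FC 0.07 ± 0.10). The treated mice spread more widely than the controls for 8 of the 10 genes, the exceptions being Snap25 and, narrowly, Rims2.

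In co-cultures 1 of the 10 genes passed the threshold, and it was lower. The threshold here was an adjusted p-value under 0.05 with a log2FC beyond 0.1, over 16193 genes, of which 90 (0.556%) were called lower and 137 (0.846%) higher. Pclo was the gene called. All 10 log2FC were at or below 0, from -0.19 in Pclo to -0.00 in Snap25, with a median of -0.04 compared with 0.00 over all genes, and 4 of the 10 had an unadjusted p under 0.05 (13.2% of all genes). Pclo, Bsn, Rims2, Unc13a and Erc2 belong to the longest of 10 classes of exonic length. In that class the median was also -0.04, and 77.7% of log2FC were negative. The groups of each of the 10 genes overlapped, as those of most genes did, since 0.58% of all genes had groups without overlap.

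Pclo, the gene for Piccolo, was at 171, 163, 177, 183, 169, 164 and 169 CPM in the 7 anti-miR-99b co-cultures and at 174, 201, 215, 193, 221, 192, 178 and 191 CPM in the 8 sc-control co-cultures. Of the 7 treated libraries, 5 lay below the lowest control, and 6 of 8 controls lay above the highest treated library. The means were 171 ± 7.01 and 195 ± 16.2 CPM (SD), and the log2FC was -0.19 ± 0.04 (SE), which is a fall of 12.6%. By edgeR the unadjusted p was 7.17e-05 and the adjusted p 0.0113, and the exact permutation test, two-sided, gave p = 0.00249.

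The lanes of the flow cell held unequal shares of the groups, so Pclo was also compared within each. On lane 4 it was at 167 CPM on average in 2 treated libraries and at 187 CPM in 2 controls (log2 ratio -0.16). On lane 5 the values were 177 CPM in 1 treated library and 209 CPM in 3 controls (-0.25), on lane 6 they were 183 and 192 CPM in 1 library each (-0.07), and on lane 7 they were 167 CPM in 3 treated libraries and 184 CPM in 2 controls (-0.14). Within each of the 4 lanes every treated library lay below every control. Bsn and Rims1 did so in each lane but lane 7, and Rims2 in each lane but lane 5. The share of all genes with this pattern was not counted, and lanes with 1 treated library separate easily. With lane as a block in the edgeR fit the log2FC was -0.16, with an adjusted p of 0.0267.

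**Figure D2:**
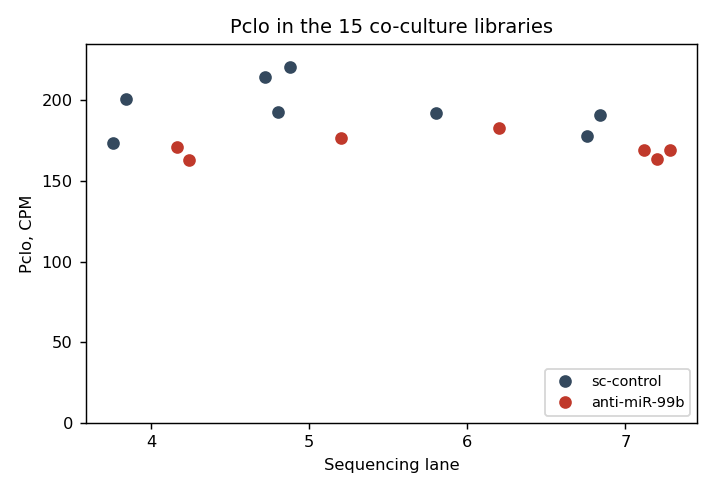
Pclo in CPM in the 15 co-culture libraries, by sequencing lane, with sc-control in dark and anti-miR-99b in red and the axis starting at 0. In each lane the red points lie below the dark ones, while a control of lane 4 (174 CPM) lies below treated libraries of lanes 5 and 6 (177 and 183 CPM).

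Bsn, the gene for Bassoon, ranged from 223 to 291 CPM with a median of 252 in anti-miR-99b co-cultures, and from 259 to 285 CPM with a median of 269.7 in sc-control co-cultures. Here 5 of 7 treated libraries lay below the lowest control, but 1 treated library (291 CPM) lay above the highest. The log2FC was -0.11 ± 0.04 (SE), with an adjusted p of 0.21 by edgeR and an exact permutation p of 0.0494. Bsn therefore missed the threshold. Without anti-miR-99b replicate 12, the library at 291 CPM, its log2FC was -0.15 with an adjusted p of 0.0209, and Bsn would have been called, among 141 genes (0.867%) called lower in that fit.

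The RIM genes moved less. Rims2 ranged from 26.1 to 29.2 CPM (median 27.8) in treated and from 27.8 to 31.9 CPM (median 29.3) in control co-cultures, with a log2FC of -0.08 ± 0.03 (SE) and an adjusted p of 0.286 by edgeR. Rims1 ranged from 131 to 136 CPM (median 134) against 133 to 149 CPM (median 136), with a log2FC of -0.04 ± 0.02 and an adjusted p of 0.467. For both, all 7 treated libraries lay below the control median while the ranges overlapped. How many of all genes do so was not counted. Erc2, the remaining scaffold, ranged from 268 to 292 CPM against 268 to 295 CPM, with medians of 276 in both groups and a log2FC of -0.01 ± 0.02.

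Downstream of the scaffold, the genes of priming and fusion differed by less than their spread. Unc13a ranged from 367 to 428 CPM (median 395) in treated and from 385 to 407 CPM (median 401) in control co-cultures (log2FC -0.03 ± 0.03, SE). Stx1a ranged from 199 to 254 CPM (median 239) against 217 to 246 CPM (median 240.3), with a log2FC of -0.02 ± 0.04. Snap25 ranged from 492 to 529 CPM against 508 to 530.3 CPM, with medians of 523 in both groups and a log2FC of -0.00 ± 0.02. The approximate 95% interval of Snap25, from -0.04 to 0.04, did not reach the log2FC of Pclo.

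Syt1 ranged from 797 to 873 CPM (median 816) in treated and from 800.0 to 880.0 CPM (median 827) in control co-cultures, with a log2FC of -0.01 ± 0.02 (SE). Syn1 ranged from 329 to 389 CPM (median 359) against 356 to 391 CPM (median 374), with a log2FC of -0.07 ± 0.03 and an adjusted p of 0.314 by edgeR. For both, 6 of 7 treated libraries lay below the control median while the ranges overlapped. The same count was 6 in Bsn, 5 in Unc13a, 4 in Stx1a and Snap25, and 3 in Erc2. These counts were not taken over all genes, and Syt1 had an exact permutation p of 0.644.

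**Figure D3:**
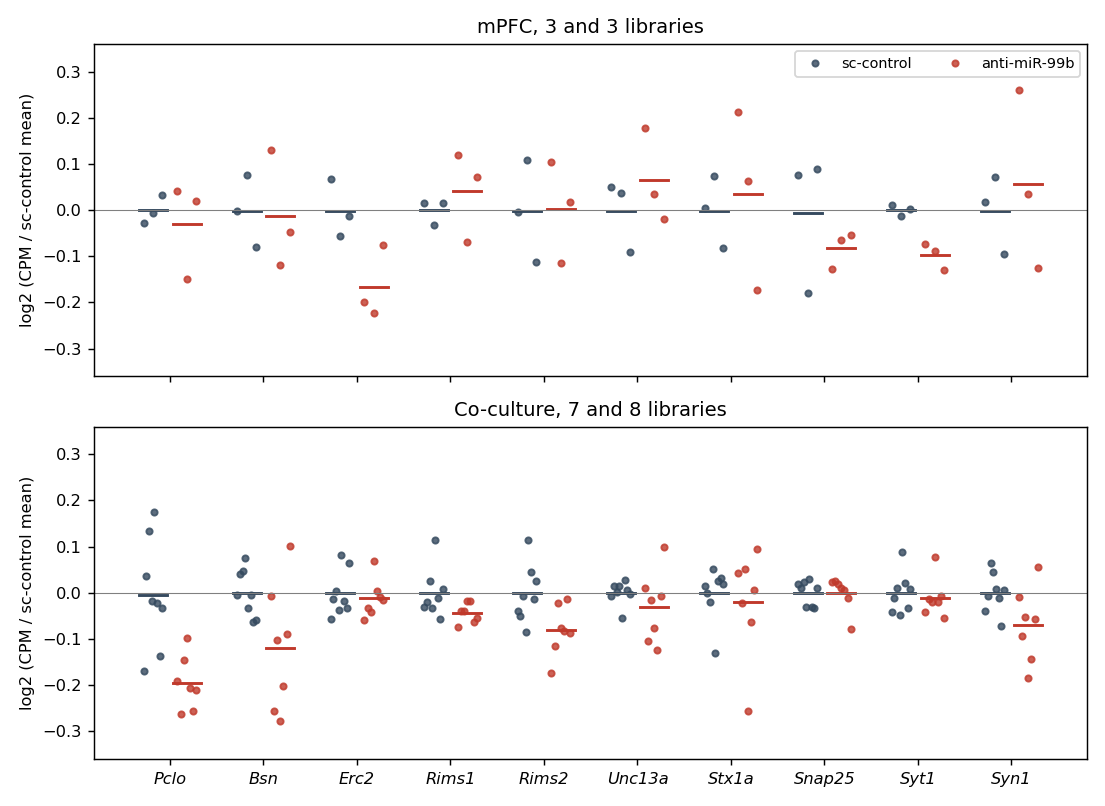
Every PFC (upper panel) and co-culture (lower panel) library as the log2 ratio of its CPM to the mean of the sc-control libraries, for each of the 10 genes, with a bar at the mean of each group's log2 ratios. In the PFC, Erc2 and Syt1 have treated points all below the controls. In co-cultures the Pclo bar of the treated libraries lies lowest, and Bsn points of the treated libraries spread from below the controls to above them.

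Gene length was then taken into account, because log2FC ran with exonic length over all genes. In 10 classes of equal size, the median log2FC of the co-cultures fell from 0.04 in the shortest class (up to 1.52 kb) to -0.04 in the longest (from 9.69 kb), and 75 of the 90 genes called lower were in the longest class, which is 4.65% of its 1614 genes. A class above 15 kb was chosen after seeing the data. In it 49 of 413 genes (11.9%) were called lower. The median log2FC of the 413 was -0.06, and 87.9% of the 413 had a negative log2FC. Pclo and Bsn belong to these 413 genes. Pclo is exceeded in exonic length by 70 of the genes tested, and Bsn by 330. Rims2, Unc13a and Erc2 were also in the longest class, yet Unc13a and Erc2 had log2FC of -0.03 and -0.01. Within the 10 genes the 3 lowest log2FC in co-cultures belonged to Pclo, Bsn and Rims2, the longest, the next and the fourth by exonic length.

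The slope of the log2 level on log2 exonic length in single co-culture libraries had a median of -0.01 in anti-miR-99b (from -0.02 to 0.01) and 0.00 in sc-control (from -0.01 to 0.03), with p = 0.0109 by a two-sided exact permutation test. In the PFC the class medians ran in the same direction, from 0.05 in the shortest class to -0.04 in the longest, but the slopes did not differ detectably between groups (exact permutation p = 0.3). None of the 5 longest of the 10 genes was called there. The lowest of the 10 in the PFC, Erc2, has a length close to the lower bound of the longest class.

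**Figure D4:**
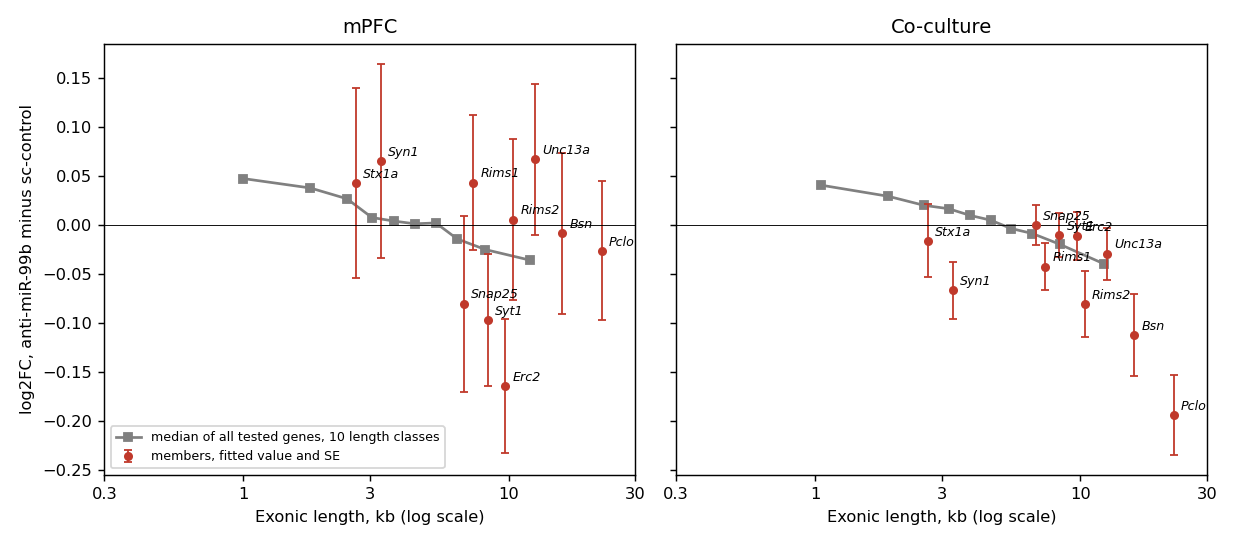
log2FC of the 10 genes (red, with SE) against exonic length on a log axis, for the PFC and for co-cultures, with grey squares for the median log2FC of all tested genes in 10 length classes, drawn at the median length of each class. In co-cultures Pclo (-0.19), Bsn (-0.11) and Rims2 (-0.08) lie below the median of the longest class (-0.04) by more than their SE, whereas Erc2 and Unc13a do not.

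With a trend over exonic length removed from each library, Pclo still passed the threshold in co-cultures. Its log2FC was -0.14 ± 0.03 (SE) and its adjusted p 0.0468 by edgeR, where 19 genes (0.117%) were called lower. The call was lost where the replicate block was added to the length trend, a fit of 8 of the 15 libraries (-0.11, adjusted p 0.225), and Pclo does not reach a limit of 0.2 on the log2FC with or without the trend. Bsn was at -0.07 ± 0.05 with an adjusted p of 0.67 and Rims2 at -0.05 ± 0.03. The log2FC of Unc13a, Erc2, Syt1 and Snap25 turned to between 0.00 and 0.01, so that the shared direction of the 10 genes did not hold once the length trend was removed. Syn1, one of the 2 shortest, was at -0.08 ± 0.03 (adjusted p 0.283). With the trend over the genomic span in place of the exonic length, Pclo was at -0.16 (adjusted p 0.0162).

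Base composition was added after the co-culture values had been seen to fall roughly into 2 patterns. Over the 15 co-culture libraries, the 4 genes of highest GC share (Bsn, Syn1, Stx1a and Unc13a) correlated with each other with r from 0.61 to 0.91 over their 6 pairs, whereas the 24 pairs that joined one of them with one of the other 6 genes had a median r of -0.26. These are descriptions without a test, over libraries of both treatment groups and of differing depth. The treatment difference therefore enters each r. Bsn and Syn1 had the highest r, 0.91, and Pclo and Rims1 had 0.81. The split was not clean. The 24 joining pairs ran from -0.83 to 0.48, and the 15 pairs among the other 6 genes from 0.06 to 0.84. Pclo had r of 0.48 with Syn1, 0.40 with Bsn, 0.12 with Unc13a and -0.25 with Stx1a, and 0.23 with Snap25. Slopes of the log2 level per 10 percentage points of GC share ranged from -0.14 to 0.12 in anti-miR-99b and from -0.10 to 0.06 in sc-control co-cultures, and the groups were not distinguished by them (exact permutation p = 0.939). Anti-miR-99b replicates 12 and 7, at the upper and lower end of these slopes, were the libraries with the highest and the lowest Bsn level.

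With the GC trend removed from each library, Bsn passed the threshold together with Pclo, among 280 genes (1.73%) called lower. Bsn was at -0.12 ± 0.02 (SE, adjusted p 0.00218 by edgeR), and Pclo at -0.20 ± 0.03 (adjusted p 0.000621). With the trends over GC and over length both removed, 82 genes (0.506%) were called lower, and Pclo was among them at -0.14 ± 0.03 (adjusted p 0.00785). Bsn was then at -0.07 ± 0.02 with an adjusted p of 0.0508, and Syn1 at -0.08 ± 0.02 with an adjusted p of 0.0305 but a log2FC inside the limit of 0.1. Thus Pclo was lower in the 4 fits, while the place of Bsn relative to the threshold depended on how base composition and length were treated.

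**Figure D5:**
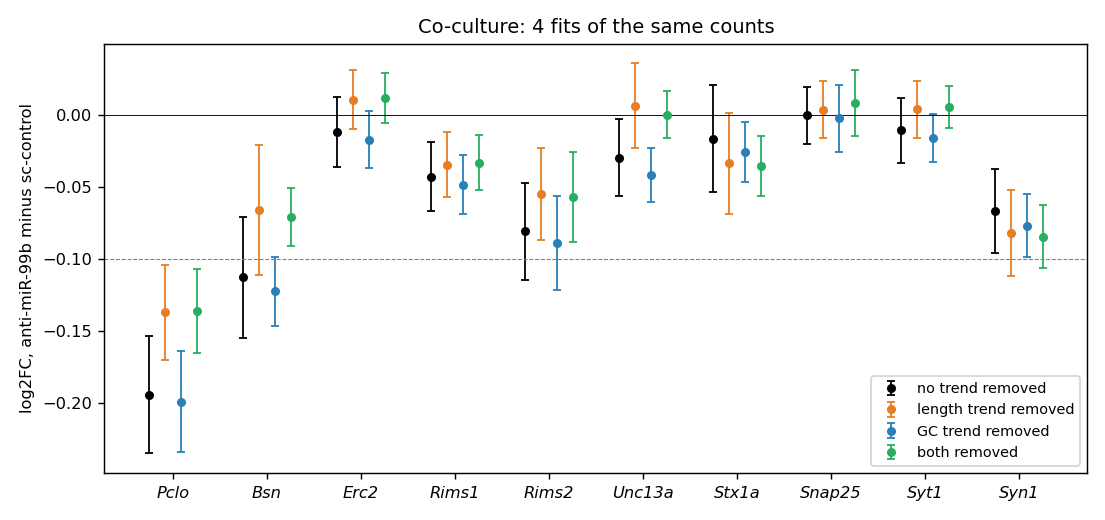
log2FC with SE of the 10 genes in co-cultures in 4 fits of the same counts, with no trend, the length trend, the GC trend or both removed from each library, and a dashed line at -0.1. Pclo lies below the dashed line in all 4, Bsn in the 2 fits that keep the length trend, and the error bars of Bsn are shorter in the fits without the GC trend.

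Microglia markers moved with the co-culture comparison. Of 15 microglia markers, 8 were called higher in anti-miR-99b co-cultures (0.846% of all genes). Among them were C1qa, C1qb and C1qc, the subunits of the complement component that tags synapses, and Trem2 (log2FC 0.70 ± 0.11, SE). The median log2FC of the 15 markers was 0.31, and their summed level ranged from 255 to 298 CPM in treated and from 216 to 269 CPM in control libraries. No microglia marker was at 0 in all libraries of a group. Of 12 neuron markers 1 was called higher and 0 lower, with a summed level of 10456 to 10861 CPM against 10648 to 10965 CPM, and none of the 10 astrocyte markers was called, with sums of 2607 to 2774 and 2624 to 2824 CPM. All 6 markers of proliferating cells had a negative log2FC (median -0.08, 0 called by edgeR and 1, Mki67, by DESeq2, 2 with an unadjusted p under 0.05 by edgeR), with sums of 132 to 151 CPM in treated and 139.6 to 153 CPM in control libraries. Of 10 oligodendrocyte lineage markers 7 were negative (median -0.05, lowest -0.66, 0 called, 0 with an unadjusted p under 0.05), with sums of 449 to 514 and 485 to 521 CPM. None of the 5 glutamatergic or 5 GABAergic neuron markers was called (medians -0.02 and -0.04, with 2 and 0 at an unadjusted p under 0.05). In the PFC the median log2FC of the microglia markers was 0.36 with 0 of 15 called by edgeR and 2 by DESeq2 (8 with an unadjusted p under 0.05 by edgeR), and their sums were 1023 to 1131 CPM in treated and 752 to 1063 CPM in control mice. The 5 GABAergic markers had a median of -0.13 there (4 negative, 0 called, 0 with an unadjusted p under 0.05), with sums of 445 to 528 CPM in treated and 522 to 535 CPM in control mice, and the 5 glutamatergic markers a median of -0.08 (0 called, 1 with an unadjusted p under 0.05). DESeq2 called 0 in the other marker lists for which edgeR called 0. Over all genes, 13.2% in co-cultures and 7.64% in the PFC had an unadjusted p under 0.05 by edgeR. The part of these markers in the fall of Pclo was not tested.

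Other presynaptic genes were read from 6 lists with 81 genes that are not among the 10. In the PFC 0 of the 81 were called by edgeR (0.0864% of all genes), and DESeq2 gave 0 too. Of 18 vesicle proteins there, 16 had a negative log2FC (median -0.06, compared with 0.00 over all genes). In this list 3 had an unadjusted p under 0.05 (7.64% of all genes), whereas 0 genes of the other 5 lists did. The smallest p of the vesicle list was that of Sv2b (log2FC -0.18 ± 0.07, adjusted p 0.639), a vesicle glycoprotein, and that of the calcium channel list belonged to Cacna2d1 (-0.27 ± 0.14), an auxiliary subunit. Smallest in the remaining lists were those of Lin7a (-0.21 ± 0.11) among active zone proteins, Napb (-0.11 ± 0.07) in the release machinery, Synj1 (-0.13 ± 0.07) in endocytosis and Flrt3 (-0.16 ± 0.09) among adhesion proteins, none of which passed the threshold.

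In co-cultures 3 of the 81 were called, among them Cacna1e and Syn3, which were lower. Of all genes tested 0.556% were called lower and 0.846% higher. In the longest length class, to which Cacna1e and Syn3 belong, 4.65% were called lower. Cacna1e, the pore subunit of R-type calcium channels, was at 218 to 238 CPM in treated and at 242 to 267 CPM in control libraries. Its groups did not overlap (0.58% of all genes), and the log2FC was -0.15 ± 0.02 (SE, adjusted p 0.00107 by edgeR). It has 25.2 kb of exons, and with the length trend removed it was at -0.09, inside the limit. Syn3, a relative of Syn1, was at 50.2 to 57.6 CPM against 55.3 to 60.2 CPM (log2FC -0.12 ± 0.03, adjusted p 0.0317). It has 12.3 kb of exons, and its call was lost with the length trend removed (-0.09, adjusted p 0.246), with the span trend removed (adjusted p 0.197), with lane as a block (adjusted p 0.0604) and with the replicate block (-0.08, adjusted p 0.535). Leaving out any one of anti-miR-99b replicates 3, 5 and 10 or sc-control replicates 2, 4, 8 and 12 also ended it, with adjusted p from 0.0535 to 0.0792.

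List by list, co-culture calls were 0 of 15 other active zone proteins (median log2FC -0.03), 0 of 18 SNARE and release machinery genes (-0.02), 2 of 18 vesicle proteins (0.00), 1 of 9 calcium channel genes (-0.05), 0 of 11 endocytosis genes (-0.03) and 0 of 10 adhesion genes (-0.05). Over all genes the median was 0.00. In the lists with 0 calls, 2, 2, 4 and 3 genes had an unadjusted p under 0.05, compared with 13.2% of all genes. The smallest p-values were those of Cask (log2FC -0.08 ± 0.02, adjusted p 0.104), Stxbp5 (-0.06 ± 0.02, 0.202), Itsn1 (-0.08 ± 0.02, 0.0442) and Adgrl3 (-0.07 ± 0.02, 0.155). Itsn1, an endocytic scaffold, missed the threshold by the size of its log2FC. The adhesion list has a median exonic length of 13.2 kb, compared with 9.03 kb for the 10 genes and 4.87 kb for the release machinery.

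Whether the effect of anti-miR-99b differed between co-cultures and PFC tissue was tested with an interaction term over 21 libraries and 18321 genes, of which 82 (0.448%) passed an adjusted p under 0.05. None of the 10 genes passed by edgeR, and 2 had an unadjusted p under 0.05 (15.4% of all genes); no other tool was run for this term. Pclo had -0.19 in co-cultures and -0.03 in the PFC, with a difference of -0.15 ± 0.08 (SE, adjusted p 0.372), so its fall was not shown to be particular to co-cultures. Erc2 had -0.01 against -0.16, with a difference of 0.17 ± 0.06 (unadjusted p 0.00519, adjusted p 0.155), and Syt1 -0.01 against -0.10, with a difference of 0.11 ± 0.05 (adjusted p 0.273). Without anti-miR-99b replicate 3 of the PFC the difference of Erc2 was 0.22 with an adjusted p of 0.0166, and without sc-control replicate 3 of the PFC that of Snap25 was 0.18 with an adjusted p of 0.036. In these 2 fits, 1528 genes (8.24%) and 448 genes (2.41%) passed over all genes, compared with 82 with all libraries.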

How the data were processed

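RNA-seq libraries (TruSeq RNA kit v2, single reads of 50 bases) were processed by the authors with bcl2fastq 2.20.2, FastQC 0.11.5, STAR 2.5.2b on mm10 and featureCounts 1.5.1, and the authors deposited raw counts of reads per gene. The annotation release and the strand setting of the counting are not given in the sources used here. Symbols, positions, exonic lengths (union of exons) and transcripts came from GENCODE M21 (GRCm38), in which 48349 of 48709 identifiers had a symbol.

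From the counts, genes were filtered with edgeR's filterByExpr, scaled with TMM factors and compared with edgeR's quasi-likelihood test (edgeR 4.0.16, R 4.3.3), per experiment, with no covariate and Benjamini-Hochberg adjustment over all genes tested. The SE is the log2FC divided by the square root of F. Levels are CPM on the library size of the tested genes. Single values were compared by exact permutation tests (scipy 1.17.1). Length and GC trends were loess curves (span 0.5) of each library's deviation in log2 CPM (prior count 0.5) from the gene's mean, entered as offsets. The fit was checked on simulated counts.

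Alternatives were DESeq2 1.42.0, RLE and upper-quartile factors, filters, 1 RUVs factor, lane or replicate number as a block, the trends, other thresholds and each library left out. The GC fits, the crossed pairing, the classes over 10 and 15 kb and the fit without 2 libraries were chosen after seeing the data. The genes, lists and tests were chosen with earlier results of these data known. Named list genes are those called (up to 5 per list) or, with none called, the one with the smallest p, and 1 called list gene and 1 gene like Pclo are not reported here. No 2 libraries of a group agreed within sampling noise (lowest chi-square per degree of freedom 1.44). Depth limits the precision little at these levels: the lowest count of the 10 genes in PFC and co-culture libraries was 657 reads, for Rims2.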

Additional observations from a re-analysis of the deposited data

Results flagged for a closer look

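In 40 groups of 4 to 8 libraries, 6 values of the 10 genes stood apart from the rest of their group by Dixon's test at the 95% level, which chance alone gives for about 1 in 20 groups. Of these 6, 3 were in the same co-culture library, sc-control replicate 6. Rims1 was at 149 CPM there, above the next control at 140.5 CPM, whereas Unc13a was at 385 CPM and Stx1a at 217 CPM, both below their next control (398 and 234 CPM). The slope of this library on exonic length was the highest of the co-cultures (0.03) and its slope on GC share the lowest of the controls (-0.10). In anti-miR-99b replicate 7 Syt1 was at 873 CPM, compared with 824 CPM in the next treated co-culture, and this library had the lowest slope on GC share of the co-cultures (-0.14). Without both libraries Pclo was at -0.18 with an adjusted p of 0.00373 by edgeR. In anti-miR-99b replicate 12 Snap25 was at 492 CPM, below the next at 515 CPM. In cultured microglia Pclo was at 5.42 CPM in anti-miR-99b replicate 5, above the other 3 libraries (4.32 to 4.49 CPM). The part of base composition in these values was not tested.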

How the results depend on the processing

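Pclo was called lower in co-cultures under DESeq2 (adjusted p 0.0017), RLE or upper-quartile factors, both filters, a RUVs factor, lane as a block, each trend and each library left out, but not with the other threshold or with replicate block and length trend together, and its log2FC was negative in each of these fits. The number of the 10 genes called in co-cultures was 0 with the other threshold (log2FC beyond 0.2), 2 with a RUVs factor or the GC trend removed (Bsn added), and 1 to 2 over the left-out libraries (2 without anti-miR-99b replicate 12). In the PFC it was 0 in each fit, and for the difference between the experiments 0 to 1 over left-out libraries (1 without anti-miR-99b replicate 3 or sc-control replicate 3 of the PFC). Over all genes 15 were called in the PFC and 227 in co-cultures, compared with 93 and 287 by DESeq2, 284 and 520 with a RUVs factor, 412 and 290 without a filter, 77 and 121 with lane as a block, 21 and 111 with the length trend, 18 and 147 with the span trend, 33 and 532 with the GC trend, 35 and 268 with GC and length trends removed, and 25 and 219 with upper-quartile factors. The list genes called fell from 3 to 1 with the length trend removed. Levels per kb had a median over the 10 genes of 49.1 in the PFC and 41.9 in co-cultures with the longest transcript, compared with 43.2 and 30.2 with exonic length. The median log2FC of long genes in co-cultures was -0.041 over 10 kb and -0.061 over 15 kb.

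Among the 10 genes, the log2FC that turned were not called in the reported fit. In the PFC, upper-quartile factors gave 0.012 (Pclo) and 0.030 (Bsn), no filter gave -0.012 (Rims2), and a RUVs factor gave -0.018 (Rims2) and -0.0097 (Stx1a). The length trend gave 0.0021 (Pclo), 0.026 (Bsn) and -0.0048 (Stx1a), and the span trend 0.014 (Pclo) and 0.0090 (Bsn). The GC trend gave -0.028 (Rims2), 0.049 (Snap25), -0.068 (Stx1a), -0.045 (Syn1) and -0.024 (Unc13a), and both trends gave -0.0064, 0.060, -0.078, -0.050 and -0.00067 for the same genes. In co-cultures Snap25 turned to 0.0050 with upper-quartile factors, 0.0010 without a filter and 0.0056 with lane as a block. The length trend gave 0.011 (Erc2), 0.0037 (Snap25), 0.0042 (Syt1) and 0.0065 (Unc13a), the span trend 0.029 (Erc2), 0.0075 (Snap25) and 0.025 (Syt1), and GC and length together 0.012 (Erc2), 0.0085 (Snap25), 0.0053 (Syt1) and 0.00038 (Unc13a). Without replicates 7 (anti-miR-99b) and 6 (sc-control), Snap25 was at 0.0029 and Stx1a at 0.0021.

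Over the left-out libraries, the log2FC that turned in the PFC ranged from -0.059 to 0.029 (Pclo), -0.080 to 0.041 (Bsn), -0.049 to 0.063 (Rims2), -0.040 to 0.15 (Syn1) and -0.047 to 0.14 (Stx1a). In co-cultures they ranged from -0.024 to 0.00040 (Erc2), -0.024 to 0.0026 (Syt1), -0.035 to 0.021 (Stx1a) and -0.0049 to 0.013 (Snap25), and for the difference from -0.13 to 0.051 (Stx1a). The cause was not tested.

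Replicate numbers are shared by 4 PFC and 8 co-culture libraries, and nothing in the labels says that a number marks a pair. Correlations of same-numbered libraries were 0.016 and -0.18 in the PFC and -0.0018 to 0.049 in co-cultures. With the replicate block, 518 PFC genes and 93 co-culture genes were called, and with the crossed pairing 638 PFC genes. The replicate block gave -0.16 for Pclo in co-cultures (adjusted p 0.00964, called), and in the PFC -0.097 (Rims2), -0.032 (Unc13a), -0.086 (Syn1) and -0.090 (Stx1a). Crossed numbers gave -0.096, -0.032, -0.087 and -0.090. In co-cultures the replicate block turned Unc13a to 0.014, Stx1a to 0.025 and Snap25 to 0.00019. Replicate block and length trend together called 0 of the 10 in co-cultures (Pclo -0.11, adjusted p 0.225), with 0.025 (Bsn), 0.051 (Unc13a), 0.0081 (Syt1), 0.012 (Stx1a) and 0.0054 (Snap25), and in the PFC gave -0.024 (Rims1), -0.12 (Rims2), -0.049 (Unc13a), -0.15 (Syn1) and -0.16 (Stx1a). This fit uses 8 of the 15 co-culture libraries.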

Other observations

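The genes whose level was most like the mean of the 10 over the 15 co-culture libraries, of both treatment groups, were Nav1 (Pearson r 0.96), Fam189a1 (0.95), Myo16 (0.95), Wdfy3 (0.95) and Ank2 (0.95). Nav1 is a guidance-related protein of neurons and Ank2 encodes ankyrin-B, a membrane adaptor. Of these 5, Nav1 (log2FC -0.12, adjusted p 0.00507 by edgeR), Wdfy3 (-0.10, adjusted p 0.0162) and Ank2 (-0.10, adjusted p 0.00795) were lower in anti-miR-99b co-cultures by the same threshold. Nav1, Wdfy3 and Ank2 have 17.3, 15.3 and 35.004 kb of exons. Of all genes tested 0.556% were called lower, and of the longest length class 4.65%. Since the 5 were picked by likeness over treated and control libraries together, the choice favours genes lower in treated libraries. Their calls are therefore no separate evidence about the 10 genes. Among the genes most like Pclo alone, chosen after its call had been seen, were Tmem178b (r 0.96), Trim44 (0.96), B230334C09Rik (0.95) and Nbea (0.93).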
